A study of Mus musculus with 12 samples.

Results

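The genes described here are 31 genes of peroxisome biogenesis and peroxisomal oxidation, read on the arrays among 20660 named genes with a probe. They were chosen by function, 13 for the assembly and growth of the organelle and 18 for its enzymes and transporters, and each was read from its brightest probe. RNA came from subcutaneous white adipose tissue (scWAT) and brown adipose tissue (BAT) of wild-type (WT) C57Bl6/J mice and of Lr11-/- mice on the same background, which lack the sorting receptor LR11 that Sorl1 encodes. All were males aged 12 weeks on a high-fat diet with 60% of calories from fat, and the WT animals were littermates. Each genotype gave 3 arrays of each tissue, which makes 4 groups and 12 arrays. The labels give the diet both as 4 weeks long and as started at weaning, so its length is not settled, and they do not tie the depots to particular mice. The deletion is given as that of the animal, and no Cre line or tissue-specific promoter is named.

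Peroxisomes shorten very long-chain, branched-chain and dicarboxylic fatty acids, degrade hydrogen peroxide and start the synthesis of ether lipids. Their matrix enzymes are made in the cytosol and are carried in by soluble receptors, which dock at the membrane, release their cargo and are pulled out again by an ATP-driven complex, and the organelle multiplies by growth and fission. Brown adipose tissue is rich in peroxisomes, and many of the genes are textbook targets of the fatty acid-activated receptor PPARα.

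Levels are given as log2 intensity minus the 75th percentile of the array, so that a spot at that percentile has level 0, and differences are between group means on the same log2 scale. All 31 genes had a tested probe and 30 were well above background on all 12 arrays. The exception was Acox2, which was dim on 2 of the 3 WT scWAT arrays. Sorl1 lay between 0.11 and 1.21 on the 6 WT arrays and between -3.93 and -2.45 on the 6 Lr11-/- arrays, so the genotype labels held on every array. Arrays stood apart within scWAT. The summed level of 6 epithelial markers was 5.42 on Lr11-/- scWAT 1, with all 6 above background, and 3.08 on WT scWAT 3, against -1.08 to -0.25 elsewhere. The summed level of 6 skeletal muscle markers was 8.75 to 11.36 on WT scWAT 3, Lr11-/- scWAT 1, WT BAT 1, WT BAT 3 and Lr11-/- BAT 1, with all 6 markers above background, and -0.60 to 1.59 on the other arrays. WT scWAT 2 had the highest summed macrophage markers (8.28 against 5.53 to 6.69 elsewhere) and the lowest summed adipocyte markers (8.46 against 9.64 to 10.80). The summed level of 6 brown adipocyte markers was 4.51, 0.84 and 8.03 in WT scWAT, 8.63, 11.70 and 11.82 in Lr11-/- scWAT and 11.35 to 11.78 in BAT. Lr11-/- scWAT 2 and 3 therefore carried brown adipocyte markers at the level of BAT. In WT scWAT 2, 3 of the 6 brown adipocyte markers were above background (Cox8b, Dio2 and Cox7a1), and Ucp1, Cidea and Elovl3 were not. In whole tissue, a change in the share of a cell type and a change in RNA per cell cannot be told apart.

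In scWAT the peroxisomal genes were higher in Lr11-/- mice than in WT mice. The group mean was higher for 30 of the 31 genes, and 7 rose past an adjusted p of 0.05 (limma) while 0 fell. These were the biogenesis genes Pex6, Pex3 and Pex11a and the enzyme genes Acox2, Ehhadh, Phyh and Acot4. Of all 32121 probes tested, 3.4% rose and 5.27% were called in either direction, against 22.6% of the genes. The median difference over the 31 genes was 1.46, and over all probes it was 0.04. In 11 genes every Lr11-/- array lay above every WT array, which held for 11.7% of all probes, and 24 genes had an unadjusted p under 0.05, as did 27.6% of all probes. The brown adipocyte markers above moved with these levels, and their part in the result was not tested.

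Pex6 showed the clearest separation among the biogenesis genes. It encodes an ATPase of the complex that pulls the import receptors back out of the membrane. Its level was 1.20, 0.81 and 1.61 in WT scWAT, 2.96, 3.85 and 3.67 in Lr11-/- scWAT, 4.02, 4.10 and 4.04 in WT BAT and 4.52, 3.93 and 4.51 in Lr11-/- BAT. The WT scWAT arrays lay below all the others, and the Lr11-/- scWAT arrays lay between them and the BAT arrays with no overlap on either side. The genotype difference in scWAT was 2.29 ± 0.29 (SE, n = 3 arrays a group), a 4.89-fold rise with an adjusted p of 0.0117 (limma). Each SE given here and below rests on a spread pooled over all 4 groups. A second, dimmer probe of Pex6 gave a smaller difference of 0.81 and did not pass (adjusted p = 0.0767, limma), so its probes disagree in size and not in direction.

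Pex3 and Pex11a were also called. Pex3 anchors the machinery that places proteins in the peroxisomal membrane, and its level was 2.31, 0.00 and 1.34 in WT scWAT against 2.55, 3.29 and 3.59 in Lr11-/- scWAT, with 2.86 to 3.57 over both BAT groups. The scWAT groups did not overlap, yet Lr11-/- scWAT 1 and WT scWAT 1 were only 0.25 apart. The difference was 1.93 ± 0.49 (adjusted p = 0.0494, limma). Pex11a, which elongates peroxisomes before they divide, read 3.92, 2.34 and 3.32 in WT scWAT against 4.21, 5.58 and 5.52 in Lr11-/- scWAT, with 4.93 to 5.38 in BAT. Lr11-/- scWAT 2 and 3 stood above all 6 BAT arrays for this gene, while Lr11-/- scWAT 1 stood below them. The difference was 1.91 ± 0.43 (adjusted p = 0.0422, limma).

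Among the enzymes the largest difference belonged to Acox2, the oxidase that opens the breakdown of branched-chain fatty acids and of bile acid precursors. It read -6.17, -5.90 and -4.33 in WT scWAT against -3.11, 1.37 and 1.29 in Lr11-/- scWAT, with -0.93 to 0.59 in BAT. Only WT scWAT 3 was above background in the WT group, and Lr11-/- scWAT 1 was far below the other arrays of its group. The difference was 5.32 ± 1.03 (adjusted p = 0.0339, limma), a size that rests partly on dim spots. Ehhadh, the bifunctional enzyme of the classical chain-shortening spiral, read 1.49, -2.12 and 1.08 in WT scWAT against 2.45, 4.42 and 5.25 in Lr11-/- scWAT, a difference of 3.89 ± 0.99 (adjusted p = 0.0494, limma). In BAT it read 1.77, 2.33 and 4.00 in WT against 3.22, 3.68 and 4.27 in Lr11-/- mice, so Lr11-/- scWAT 2 and 3 exceeded every BAT array. Acox2 and Ehhadh also belong to the study's own list of strongly regulated genes, which was chosen on these arrays and so is no independent evidence of their direction.

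Phyh and Acot4 completed the called enzymes. Phyh, which starts the alpha-oxidation of phytanic acid, read 4.17, 2.36 and 4.05 in WT scWAT, 4.65, 6.42 and 6.69 in Lr11-/- scWAT and 6.75 to 7.02 in BAT. No Lr11-/- scWAT array reached the lowest BAT array, and the genotype difference was 2.40 ± 0.56, a 5.26-fold rise (adjusted p = 0.0434, limma). Acot4, a thioesterase that frees dicarboxylic acids from CoA, read -1.60, -2.54 and -1.65 in WT scWAT against 0.11, 0.80 and 1.31 in Lr11-/- scWAT, a difference of 2.67 ± 0.51 and a 6.36-fold rise (adjusted p = 0.0327, limma). Its levels in BAT were -1.12, -0.58 and 0.94 in WT against 0.55, 0.14 and 0.65 in Lr11-/- mice, which overlapped with Lr11-/- scWAT. Crat, the carnitine acetyltransferase that lets short acyl groups leave the organelle, lay just outside the threshold. It read -0.61, -3.41 and 0.03 in WT scWAT, 0.44, 2.13 and 2.17 in Lr11-/- scWAT, 1.92, 2.06 and 1.73 in WT BAT and 2.25, 2.22 and 2.19 in Lr11-/- BAT, and the difference in scWAT was 2.91 ± 0.76 (adjusted p = 0.0516, limma).

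**Figure D1:**
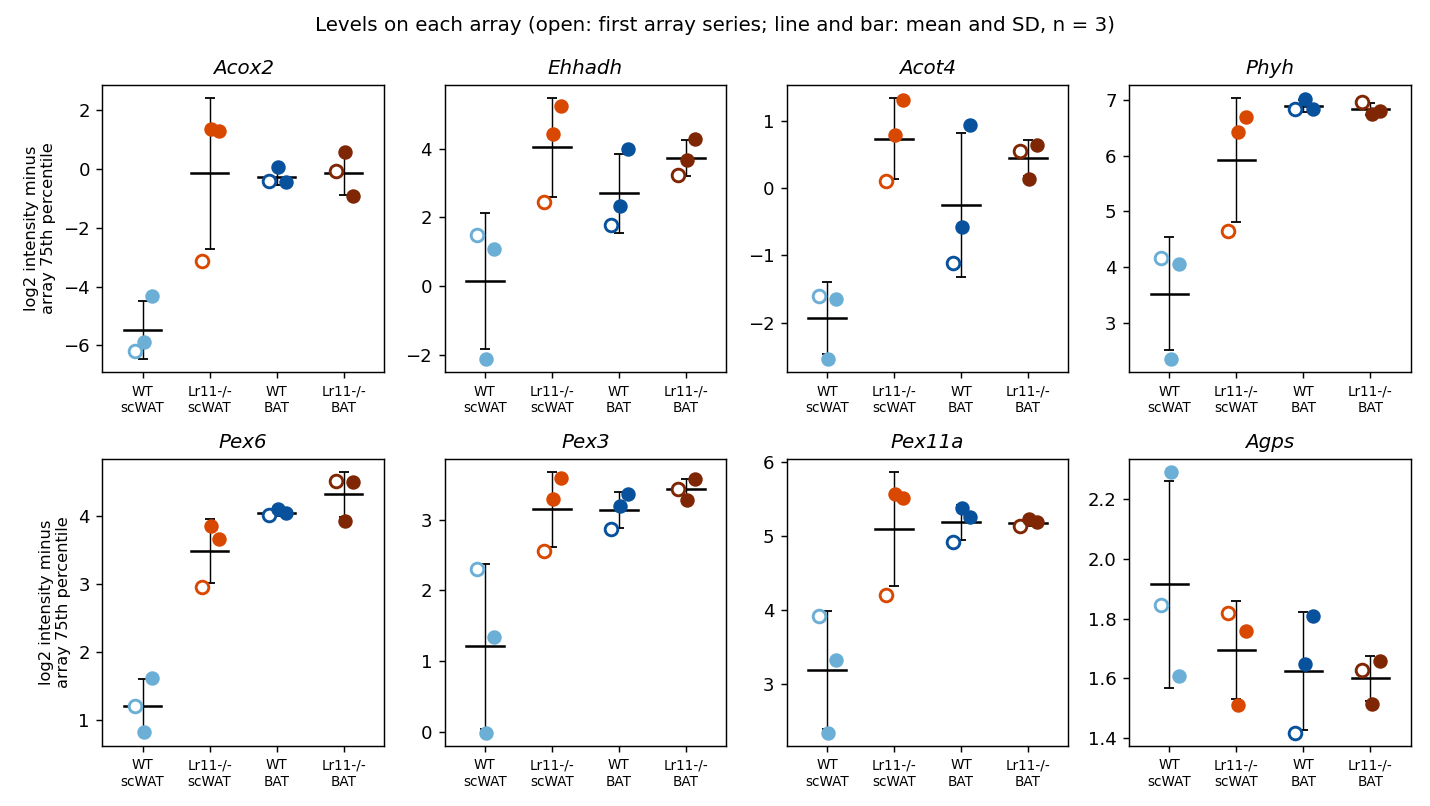
Level (log2 intensity minus the 75th percentile of the array) of the 7 genes called in scWAT and of Agps, the 1 gene with a lower mean in Lr11-/- scWAT, on each of the 12 arrays by group. Points are arrays, open points belong to the first array series, and lines with bars give mean and SD (n = 3). In each called gene the 3 WT scWAT arrays lie below the 3 Lr11-/- scWAT arrays, and the open Lr11-/- scWAT point is the lowest of its group.

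The promoters of the genes are shown where they differ in a letter pattern that bears on the regulators described further on. PPAR receptors paired with RXR bind a direct repeat of the half-site AGGTCA with a spacer of 1 base. RefSeq windows (assembly GRCm38.p6) of 300 bases, 250 before and 50 after a transcription start, were found for 26 of the 31 genes and were searched on both strands. The full repeat, with any base as the spacer, stood in 13 of 32851 windows (0.0396%) and in no window of these genes. A looser form, NGGNCA followed by any base and AGGNCA, chosen after the stricter ones had been counted and overlapping them, stood in 0.798% of all windows and in those of Acox2, Acot4 and Pex11g. Acox2 and Acot4 were called in scWAT and Pex11g was not. The 250 bases before the start of these genes and of Pex6, the called gene with the smallest adjusted p and with no match, read as follows, 5′ to 3′ on the strand of the gene, with the match in capitals.
Acox2 (chr14:8259020-8259269, minus strand): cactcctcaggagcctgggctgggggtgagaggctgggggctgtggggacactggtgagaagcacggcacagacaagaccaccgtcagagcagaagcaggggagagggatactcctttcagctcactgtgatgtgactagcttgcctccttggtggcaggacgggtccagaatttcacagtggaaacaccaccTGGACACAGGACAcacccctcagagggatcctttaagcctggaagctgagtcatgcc
Acot4 (chr12:84038129-84038378, plus strand): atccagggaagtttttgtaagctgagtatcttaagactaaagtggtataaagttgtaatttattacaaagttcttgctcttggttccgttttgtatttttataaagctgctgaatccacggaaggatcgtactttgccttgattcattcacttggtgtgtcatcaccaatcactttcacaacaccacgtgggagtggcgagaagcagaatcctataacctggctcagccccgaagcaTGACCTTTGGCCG
Pex11g (chr8:3467649-3467898, minus strand): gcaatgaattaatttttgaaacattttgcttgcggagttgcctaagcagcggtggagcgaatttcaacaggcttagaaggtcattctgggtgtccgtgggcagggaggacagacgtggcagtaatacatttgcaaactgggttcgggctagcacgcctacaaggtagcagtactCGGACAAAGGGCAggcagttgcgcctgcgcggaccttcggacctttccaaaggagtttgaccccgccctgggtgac
Pex6 (chr17:46711226-46711475, plus strand): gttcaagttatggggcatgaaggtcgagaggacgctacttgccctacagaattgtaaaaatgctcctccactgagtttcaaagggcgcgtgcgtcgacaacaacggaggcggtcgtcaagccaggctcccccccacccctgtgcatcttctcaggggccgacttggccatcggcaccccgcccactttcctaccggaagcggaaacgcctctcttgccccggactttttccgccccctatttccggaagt
In Acox2 the match lay 57 to 45 bases before the start, and a second annotated start of the gene, further downstream, has the same match in its window. In Acot4 it lay on the other strand, 13 to 1 bases before the start, and in Pex11g 76 to 64 bases before it. The half-site AGGTCA alone stood in 16.3% of windows and in those of Acot4, Cat, Pex11g, Phyh and Scp2. These are letter matches in short windows, and no binding was measured.

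The other biogenesis genes had higher means in Lr11-/- scWAT without passing the test. The import receptor genes Pex5 and Pex7 differed by 1.08 and 1.37, and the docking genes Pex13 and Pex14 by 1.61 and 1.1. Of the RING-type ubiquitin ligase genes, which mark receptors for recycling, Pex10 differed by 1.18 with no overlap between genotypes (adjusted p = 0.06, limma) and Pex2 by 0.61. Pex16 and Pex19, which serve membrane protein insertion with Pex3, differed by 1.55 and 1.19, and Pex11g by 0.93. Pex26, the membrane anchor of the Pex6 complex, had a small difference, with 0.72, 0.44 and 0.86 in WT scWAT against 0.61, 1.39 and 0.98 in Lr11-/- scWAT. Its groups overlapped and differed by 0.32 ± 0.24, the smallest difference among the 13 biogenesis genes.

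The other enzyme and transporter genes spanned differences from -0.22 to 2.0. Abcd3, a half-transporter for long-chain acyl-CoA, differed by 2.0 and its relative Abcd2 by 1.63, and neither passed. The thiolase-step genes Scp2, Acaa1b and Acaa1a differed by 1.82, 1.72 and 0.59, and Hsd17b4, the second multifunctional enzyme, by 1.46. Pecr, an enoyl-CoA reductase, read 2.85, 0.96 and 2.42 in WT scWAT against 2.89, 4.03 and 4.04 in Lr11-/- scWAT and differed by 1.57 with no overlap. The thioesterase gene Acot8 read 1.76, 1.45 and 1.04 against 1.21, 3.28 and 3.24, which overlapped, and differed by 1.16. Crot, which makes medium-chain acylcarnitine, differed by 1.02. Acox3, a branched-chain oxidase like Acox2, read 2.72, 2.48 and 2.28 in WT scWAT against 2.74, 2.79 and 2.93 in Lr11-/- scWAT, a difference of only 0.33 ± 0.19. Cat, the catalase that removes hydrogen peroxide, read 3.67, 4.16 and 3.33 against 4.09, 4.40 and 4.40, and differed by 0.57 ± 0.24. A second, dimmer probe of Cat differed by 1.54 and did not pass (adjusted p = 0.108, limma), so the size depends on the probe. The ether lipid genes went apart: Gnpat differed by 1.36 and Agps, the next enzyme of that pathway, by -0.22 ± 0.22. Agps read 1.85, 2.29 and 1.61 in WT scWAT against 1.82, 1.51 and 1.76 in Lr11-/- scWAT, and over all 12 arrays it stayed between 1.42 and 2.29.

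The differences in scWAT were not alike in the array series. In the first series, with 1 array a group on the same slide for this tissue, 12 of the 31 genes were higher in the Lr11-/- array and 19 were lower, with a median difference of -0.22. In the second series, with 2 arrays a group, 30 were higher and the median was 2.35. The 7 called genes were higher in Lr11-/- mice in both series, Pex6 by 1.76 and 2.55, Acot4 by 1.70 and 3.15 and Acox2 by 3.06 and 6.44, while Pex3, Pex11a and Phyh were higher by 0.25, 0.30 and 0.48 in the first. Pex16, Acaa1b, Acaa1a, Hsd17b4 and Abcd2 were lower in the Lr11-/- array of the first series by 0.97 to 1.18 and higher in the second by 1.37 to 3.08.

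**Figure D2:**
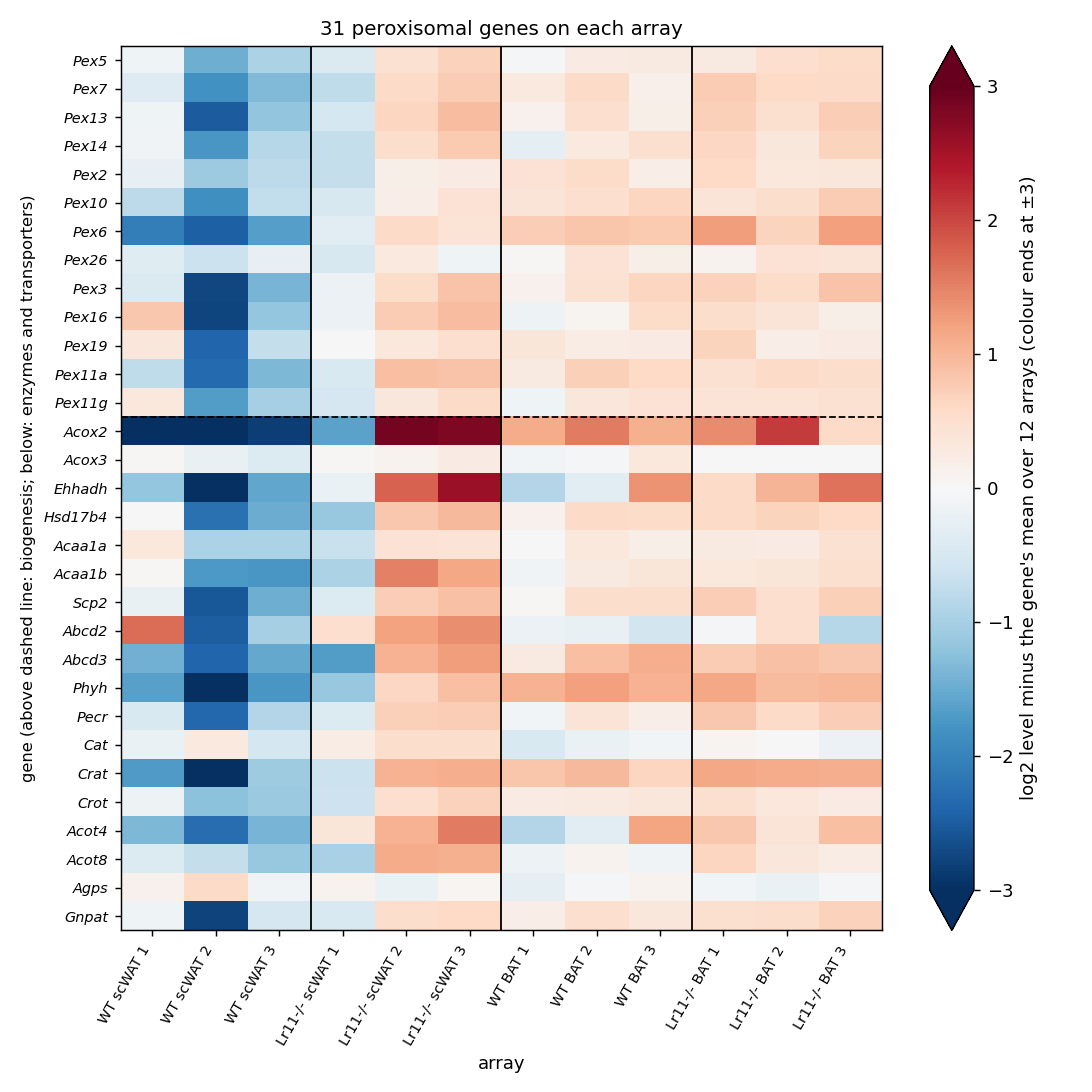
Level of each of the 31 genes (rows) on each array (columns), as log2 level minus the mean of the gene over the 12 arrays, with colours ending at ±3. WT scWAT 2 is the lowest of the 12 arrays for 25 genes, and Lr11-/- scWAT 2 and 3 lie at or above the colours of BAT for most genes.

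The arrays of each genotype were far apart in scWAT and close in BAT. The median level of the 31 genes was 2.46, 1.0 and 1.61 on the WT scWAT arrays and 2.48, 3.32 and 3.56 on the Lr11-/- scWAT arrays, so that Lr11-/- scWAT 1 sat beside WT scWAT 1. The WT BAT arrays gave 2.97, 3.25 and 3.36, and the Lr11-/- BAT arrays 3.43, 3.28 and 3.44. The median SD over the genes was 0.82 for WT scWAT and 0.63 for Lr11-/- scWAT, against 0.20 in WT BAT and 0.13 in Lr11-/- BAT. Set against the range of the 6 BAT arrays, 21, 29 and 30 genes were below it on the WT scWAT arrays and 25, 4 and 3 on the Lr11-/- scWAT arrays. On both Lr11-/- scWAT 2 and 3, 11 genes exceeded every BAT array, namely Pex16, Pex11a, Acox2, Ehhadh, Hsd17b4, Acaa1b, Scp2, Abcd2, Cat, Crot and Acot8.

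**Figure D3:**
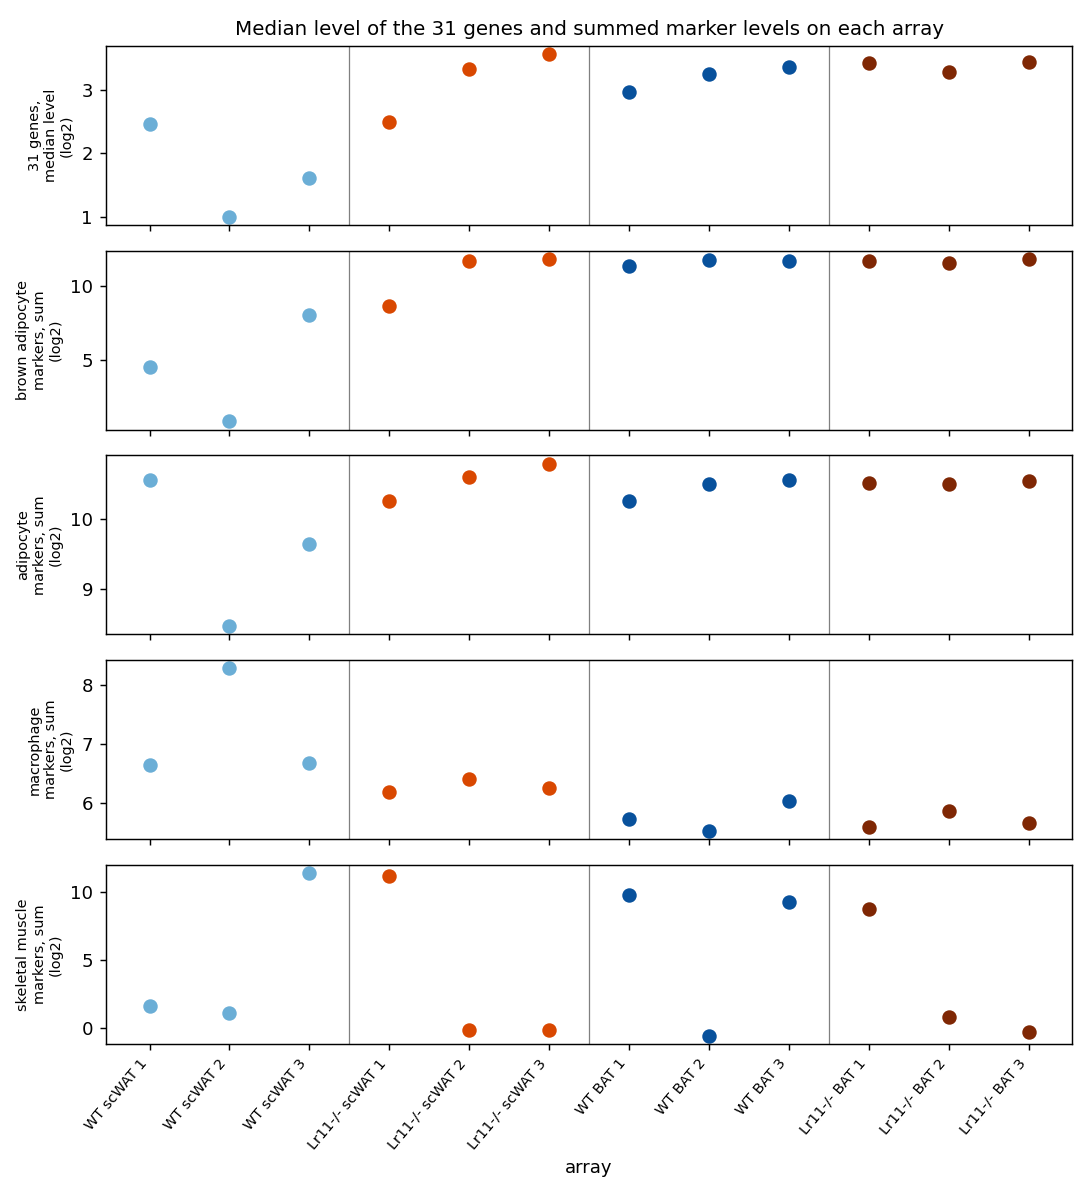
Median level of the 31 genes (top) and the log2 summed levels of brown adipocyte, adipocyte, macrophage and skeletal muscle markers on each of the 12 arrays, with 1 point an array. The median of the genes is lowest on WT scWAT 2 (1.0), which also has the lowest brown adipocyte and adipocyte sums and the highest macrophage sum, and highest on Lr11-/- scWAT 3 (3.56). The muscle sum is high on 5 arrays over all 4 groups.

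The calls in scWAT depended on single arrays. Leaving out 1 array at a time, 0 genes were called without Lr11-/- scWAT 2 or 3, with 0.0872% and 0.00934% of all probes. Without WT scWAT 2, 1 gene and 0.691% of all probes were called, and without WT scWAT 3, 9 genes and 14.4%. Without WT scWAT 1 or Lr11-/- scWAT 1, 21 genes were called each time, with 13.7% and 19.8% of all probes. Leaving out a BAT array left 1 or 2 genes and 0.451% to 0.545% of all probes. In each of these fits the share of all probes moved from 5.27% in the same direction as the count of genes. Pex6 was called in 10 of these 12 fits, the exceptions being those without Lr11-/- scWAT 2 or 3 (highest adjusted p = 0.0717, limma), Acot4 in 5, and Pex3, Pex11a, Acox2, Ehhadh and Phyh in 3 each, namely without WT scWAT 1, WT scWAT 3 or Lr11-/- scWAT 1. In all 12 fits the difference of these 7 genes stayed positive. Without the 2 scWAT arrays of high muscle markers, 20 genes and 26.2% of all probes were called. Without all 5 arrays of high muscle markers, which leaves WT BAT 2 alone in its group, the median difference of the genes in scWAT was 1.83. Both alternatives were added after the data were seen. With array series as a block 4 genes were called, Pex6, Acot4, Acox2 and Pex11a, beside 4.03% of all probes. With slide as a block 3 genes and 2.84% of all probes were called. In a fit of the scWAT arrays alone 0 genes and 0 of all 32121 probes passed, and 4658 probes had an unadjusted p under 0.05.

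In BAT the genotypes did not differ past the threshold in any of these genes. With limma 0 of the 31 passed an adjusted p of 0.05, against 0.0187% of all probes, and 0 had an unadjusted p under 0.05, against 2.12% of all probes. These tests, and the intervals below, use a spread pooled with that of the scWAT arrays. In a fit of the BAT arrays alone 0 genes and 0.0872% of all probes passed (limma). There 2278 probes had an unadjusted p under 0.05, against 680 in the main fit. The median difference was 0.21, with 0.04 over all probes, and 27 means were higher in Lr11-/- BAT. In the first series 31 were higher, with a median of 0.43, and in the second 22, with a median of 0.10. The largest were Ehhadh, with 1.02 ± 0.99, and Acot4, with 0.70 ± 0.51, in both of which the genotypes overlapped. Pecr read 3.23, 3.69 and 3.51 in WT BAT and 4.12, 3.89 and 4.05 in Lr11-/- BAT, and Acot8 read 2.01, 2.27 and 2.06 against 2.81, 2.52 and 2.39. These genes, with Pex5 and Crat, were the 4 in which every Lr11-/- array lay above every WT array, which held for 7.4% of all probes. At the other end Phyh, Acox3, Agps and Pex11a had means that were level or lower in Lr11-/- BAT, at differences of -0.06, -0.06, -0.03 and 0.00. Phyh read 6.84, 7.02 and 6.83 in WT BAT against 6.95, 6.75 and 6.79 in Lr11-/- BAT, and Pex11a 4.93, 5.38 and 5.26 against 5.13, 5.23 and 5.19. Acox3 read 2.60, 2.67 and 3.0 against 2.69, 2.71 and 2.70, and Agps 1.42, 1.65 and 1.81 against 1.63, 1.51 and 1.66. In all of these the genotypes overlapped. The 95% intervals in BAT reached from -0.38 to 0.91 for Pex6, from -0.95 to 0.95 for Pex11a and from -2.15 to 2.39 for Acox2. Each leaves out the estimate for that gene in scWAT. Those estimates have intervals of their own, 1.64 to 2.94 for Pex6, 0.96 to 2.86 for Pex11a and 3.04 to 7.59 for Acox2. The difference between the effects in scWAT and BAT did not pass for any of these genes in the main fit (limma).

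The genotype effect in scWAT minus that in BAT was positive for 30 of the 31 genes, with a median of 1.15 against 0.02 over all probes. With limma 0 genes and 0% of all probes passed an adjusted p of 0.05, and 8 genes had an unadjusted p under 0.05, as did 11% of all probes. Pex6 had the smallest p, at an effect of 2.02 ± 0.41 (adjusted p = 0.277, limma). A difference between the depots in response to the genotype was therefore not shown with all arrays in the fit. Without Lr11-/- scWAT 1 it passed for 5 genes (Abcd3, Acox2, Pex11a, Pex6 and Phyh) and for 3.71% of all probes. Without WT scWAT 3 it passed for Pex6 alone of these genes and for 0.735% of all probes.

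**Figure D4:**
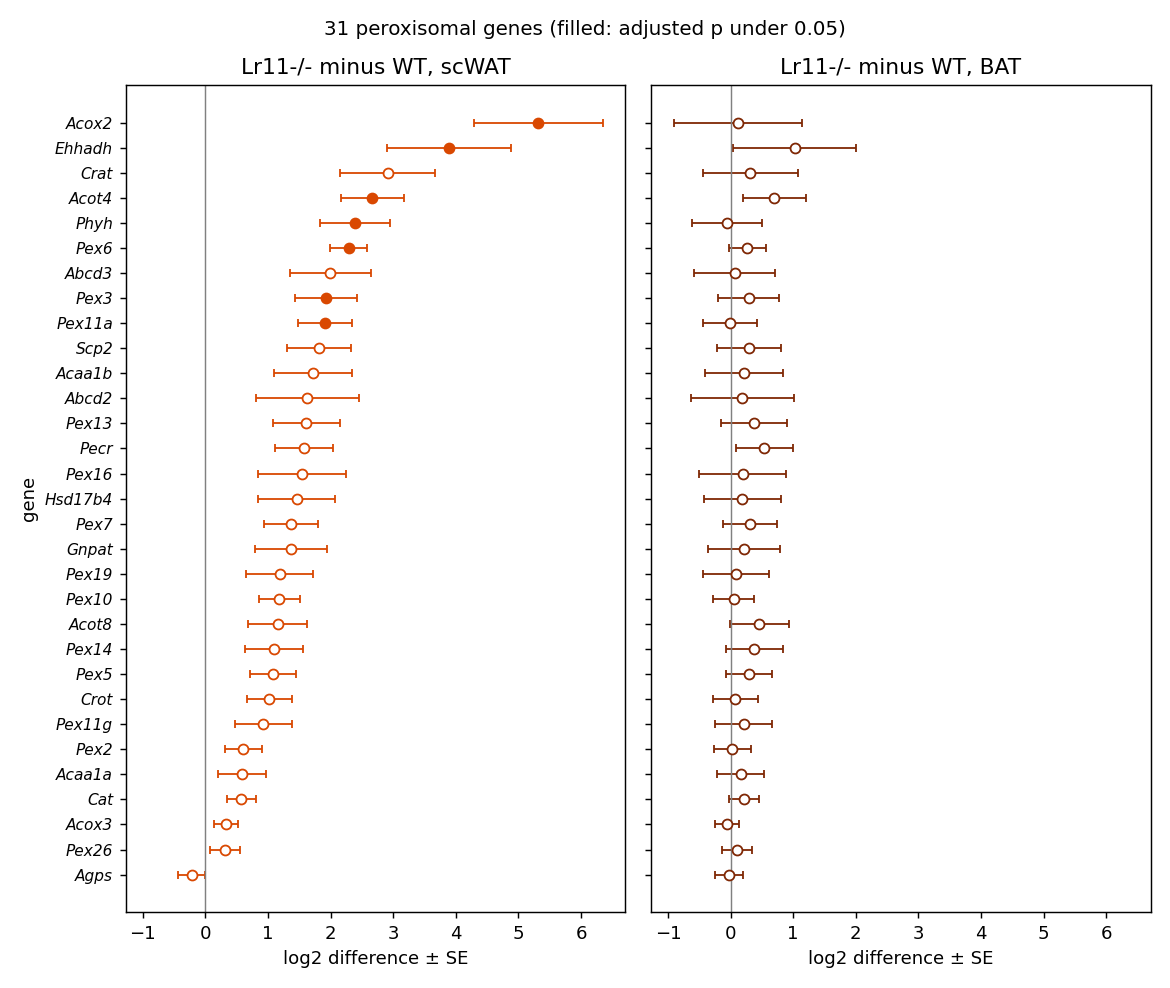
Difference between Lr11-/- and WT mice in scWAT (left) and BAT (right) for the 31 genes, in log2 units with the SE of the fit, ordered by the difference in scWAT. Filled points passed an adjusted p of 0.05. In scWAT the values run from -0.22 (Agps) to 5.32 (Acox2) with 7 filled, and in BAT from -0.06 to 1.02 with 0 filled.

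In WT mice BAT held more of these transcripts than scWAT. Of the 31 genes 14 were higher in BAT and 0 lower past the threshold (limma), 45.2% of them against 15.7% of all probes that were higher and 24.8% called in either direction. The median difference was 1.4, and 21 genes had all WT BAT arrays above all WT scWAT arrays, as did 24.3% of all probes. In the first series 22 genes were higher in BAT, with a median of 0.29, and in the second 29, with a median of 1.93. The largest were Acox2 (5.21 ± 1.03, adjusted p = 0.00756), Phyh (3.37 ± 0.56, adjusted p = 0.00452), Crat (3.23 ± 0.76, adjusted p = 0.0138) and Pex6 (2.85 ± 0.29, adjusted p = 0.00169). Abcd3, Pex11a, Pex3, Scp2, Acot4, Pex10, Pex7, Pecr, Crot and Pex2 made up the rest of the called genes. Agps (-0.29 ± 0.22), Cat (-0.10 ± 0.24) and Acox3 (0.27 ± 0.19) stood at the other end and did not pass. A second probe of Acox3 gave a larger difference of 0.68 and did not pass either (adjusted p = 0.0657, limma). The second probe of Cat had a WT depot difference of 0.88, so the direction for catalase depends on the probe. Its brightest probe read 3.41, 3.67 and 3.77 in WT BAT, which overlapped with WT scWAT. Leaving out 1 array gave from 5 calls, without WT BAT 2, to 25, without WT scWAT 1, with 10.2% and 31.9% of all probes called. For the first series the depots lay on separate slides, so slide and depot cannot be told apart there.

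Between the depots of Lr11-/- mice no gene passed the test. With limma 0 of 31 passed, against 0.0405% of all probes, 1 had an unadjusted p under 0.05 against 9% of all probes, and the median difference between BAT and scWAT was 0.26. Pex2, Pex6, Phyh and Crat had every BAT array above every scWAT array, and Acox3 and Cat every BAT array below, 19.4% of the genes against 23.2% of all probes. For Acox3 the direction depends on the probe, since its second probe had a mean higher in BAT by 0.16. Within the first series 27 genes were higher in BAT, with a median of 0.93, and within the second 7 were higher and 24 lower, with a median of -0.16. Over the 4 group means, WT scWAT was the lowest for 29 of the 31 genes. The exceptions were Cat, lowest in WT BAT, and Agps, lowest in Lr11-/- BAT. The most common order, in 13 genes, had both scWAT groups below both BAT groups and WT below Lr11-/- within each tissue, though neither the genotypes in BAT nor the depots in Lr11-/- mice differed past the threshold in any gene.

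Of 41 further peroxisomal genes with a tested probe, 36 had a higher and 5 a lower mean in Lr11-/- scWAT, the lowest being Pipox, a pipecolic acid oxidase, at -0.66. Past an adjusted p of 0.05 (limma) 7 rose and 0 fell, 17.1% of them against 3.4% of all probes that rose, with a median difference of 1.31, and in BAT 0 passed and 0 had an unadjusted p under 0.05. The called genes were Slc27a2, an acyl-CoA synthetase for very long chains (6.97 ± 1.11, dim on 1 WT scWAT array), Ddo, D-aspartate oxidase (4.54 ± 0.91, dim on 1 WT scWAT array), Acad11, an acyl-CoA dehydrogenase (2.82 ± 0.63), Hacl1, the lyase that follows Phyh in alpha-oxidation (2.57 ± 0.58), the thioesterase gene Acot5 (2.49 ± 0.60), the isomerase gene Eci3 (1.62 ± 0.35) and the racemase gene Amacr (1.53 ± 0.28). In the same 41 genes 36 had a higher mean in WT BAT than in WT scWAT and 5 a lower one. Past the threshold 18 were higher and 0 lower (limma), 43.9% against 15.7% of all probes that were higher. Between the depots of Lr11-/- mice 0 passed (limma), with 4 at an unadjusted p under 0.05, as had 9% of all probes.

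Of the regulators read beside them, Ppara, the receptor named above, rose by 4.77 (adjusted p = 0.0498, limma) and its coactivator gene Ppargc1a by 4.50 (adjusted p = 0.037, limma) in Lr11-/- scWAT. Ppara read 0.31, -2.51 and 1.98 in WT scWAT, 1.81, 6.04 and 6.23 in Lr11-/- scWAT and 6.10 to 6.87 in BAT. For Ppara, Lr11-/- scWAT 1 lay within the WT range and the other arrays of its group at or near BAT. Leaving out 1 array, Ppara and Ppargc1a were each called in 3 of 12 fits, namely without WT scWAT 1, WT scWAT 3 or Lr11-/- scWAT 1, with differences of 3.55 to 6.21 for Ppara and 3.76 to 5.56 for Ppargc1a. Pparg, the receptor that drives adipocyte differentiation, differed by 2.23, Ppargc1b by 2.66, Rxrg by 0.77, Rxrb by 0.62, Rxra by 0.36 and Ppard by -0.05, and none of these passed. Rxrg was read from the brighter of its 2 tested probes, and over the alternative fits its difference ran from 0.53 to 1.62. The study's own list of strongly regulated genes, chosen on these arrays, names Rxrg by the other probe, so its size may depend on the probe. In BAT 0 of the 8 regulators passed and 0 had an unadjusted p under 0.05 (limma). In WT mice all 8 had a higher mean in BAT than in scWAT. Of these, 6 passed the threshold (limma), 75% against 15.7% of all probes that were higher.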

How the data were processed

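Total RNA (0.1 µg) from 12 samples, 3 in each of 4 groups, was labelled with Cy3 and read on one-colour Agilent 8x60K arrays. Per the labels, Feature Extraction 10.10 was used, and the authors deposited scanner intensity values that are background-subtracted by that software. The deposited series table held the same values on a linear intensity scale, with no scaling between arrays. Depth has no meaning for arrays, and 3 arrays a group limit the precision. The 75th percentile of the arrays was 374 to 632 intensity units, 32377 to 37002 of 59305 non-control spots were well above background, and no spot was saturated.

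From the deposited intensity, log2 values were taken minus the 75th percentile of each array. Outlier spots (128 to 181 an array) were left out and spots of a probe averaged. Of 55681 probes, 32121 had a clear signal (well above background) on each of the 3 arrays of some group, and these were tested with limma 3.58.1 (R 4.3.3; lmFit and eBayes, 12 arrays, 4 group means, Benjamini-Hochberg over all probes, call at adjusted p under 0.05). SEs and 95% intervals are those of this fit. RefSeq accessions gave 27235 probes a gene symbol, and a gene was read from its brightest probe. Groups came from the labels. The replicate numbers only name arrays: replicate 1 is the array of the first series and 2 and 3 those of the second. The labels do not say that samples of a group came from separate mice, so p-values measure the spread between these samples. For each probe that spread is pooled over all 4 groups. SEs, intervals and p-values in scWAT therefore draw on the BAT arrays too, and those in BAT on the scWAT arrays. On simulated data for the scWAT contrast over 32121 probes, 47 of 100 probes changed by 2 log2 units were recovered. Of 100 changed by 4, 84 were recovered, and 12 unchanged probes were called. The simulated noise of a probe had the same spread in all 4 groups, pooled over scWAT and BAT, so it did not carry the spread of scWAT itself. The median SD over the genes described was 0.82 in WT scWAT and 0.63 in Lr11-/- scWAT, against 0.20 in WT BAT and 0.13 in Lr11-/- BAT. The simulated counts therefore need not hold for the measured scWAT contrast.

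The genes and lists were chosen with earlier results of these data known. By the rule used, values on every array are given for genes called in a genotype comparison for the 4 with the largest and the 4 with the smallest difference in either genotype comparison, and for the genes farthest apart between WT depots. Marker sums are log2 of the summed scaled intensity. Alternatives covered scaling, background, filter, blocks, weights, probe choice and leaving out arrays. The normexp alternative used median signals, since mean signals were not analysed here. A gene of the wider peroxisomal list is not reported here.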

Additional observations from a re-analysis of the deposited data

How the results depend on the processing

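Means were higher in Lr11-/- scWAT for 30 of the 31 genes under every alternative fit that held all of them, though the first array series by itself, with 1 array a group and no test, had 12 higher and 19 lower, and the number of calls moved. In scWAT, 7 genes were called, and 5.27% of all probes, whose share follows each count in brackets. There were 3 calls (2.61%) without scaling between arrays and 1 (0.271%) with no filter on dim probes. With array series as a block 4 were called (4.03%), and with slide as a block 3 (2.84%). The second array series alone gave 26 (22.6%), array weights 19 (11.4%) and the scWAT arrays alone 0 (0%). Without the 2 scWAT arrays of high muscle markers 20 were called (26.2%). Between the depots of WT mice, 14 were called (24.8%), and 7 without scaling (22.4%), 9 with no filter (10.4%) and 5 with slide as a block (12.4%). The second series alone gave 24 (25.3%). Without the 5 arrays of high muscle markers, which leaves WT BAT 2 alone in its group, the median difference was 1.49. For the difference between the genotype effects, 0 were called (0%), and 6 in the second series alone (2.77%), 6 with array weights (3.4%) and 7 without the 2 scWAT arrays (9.43%). Between the depots of Lr11-/- mice, 0 were called (0.0405%), and 1, Cat, with array weights (5.67%). The filter changes the number of probes tested (55681 without it), and leaving out arrays changes the number of samples. The cause of the other changes was not tested. Leaving out 1 array gave 0 to 21 calls in scWAT, 5 to 25 between WT depots, 0 to 5 for the difference between effects, and 0 in BAT and between Lr11-/- depots. Over all probes the shares in these fits were 0.00934% to 19.8% in scWAT, 10.2% to 31.9% between WT depots and 0% to 3.71% for the difference between effects.

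Scaling moved the median of all probes in scWAT from 0.04 to -0.20 without scaling and to 0.15 with median scaling. Directions that turned belonged to values that did not pass the test. With median scaling they were 0.0563 for Ppard in scWAT, 0.0342 for Pex11a and 0.0121 for Agps in BAT, and 0.026 for Cat between WT depots. Without scaling, Acox3 was -0.0511 between WT depots. Array weights gave -0.0598 for Rxra in scWAT, and the mean over probes gave -0.0537 for Rxra and 0.39 for Cat between WT depots. Without the 5 arrays of high muscle markers, BAT gave -0.22 for Acox2 and 0.0365 for Acox3. Leaving out 1 array gave -0.25 to 0.26 for Ppard and -0.0554 to 0.74 for Rxra in scWAT and -0.30 to 0.12 for Cat between WT depots. In BAT it gave -0.13 to 0.0928 for Pex11a, -0.13 to 0.0648 for Acox3, -0.13 to 0.0676 for Agps and -0.24 to 0.52 for Acox2.

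No paired analysis was possible because the labels carry no replicate numbers and do not tie the depots to mice. The numbers used here only name arrays, and the blocks above are array series and slide. The number of arrays limits what could be called, and dim spots limit Acox2, for which signal was above background on 10 of 12 arrays.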
